A study of Mus musculus with 7 samples.

Results

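The expression of 9 genes of phosphate, pyrophosphate and mineral metabolism was followed in primary mouse articular chondrocytes exposed to BMP2 or TGFβ1. The genes were taken by name from 52459 gene names in the count file, and all 9 had enough counts to be among the 13367 genes tested. The cells came from the femoral head and were grown in high-glucose medium with 10% fetal bovine serum. They received BMP2 at 100 ng/ml (3 libraries, replicates 1, 2 and 3), TGFβ1 at 5 ng/ml (2 libraries, replicates 1 and 3) or vehicle (2 libraries, replicates 1 and 2) for 24 h, and bulk RNA was sequenced. The labels name no strain, age, sex or genotype of the mice and do not state what sets 1 replicate apart from the next, so each p-value speaks for the spread between these libraries, which may be technical.

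Mineral forms in cartilage when inorganic phosphate accumulates and its inhibitor, inorganic pyrophosphate, is removed. Pyrophosphate is made outside the cell by the nucleotide pyrophosphatase ENPP1, from nucleotides whose release depends on the membrane protein ANK (the product of Ank, ANKH in humans), and is split into phosphate by tissue-nonspecific alkaline phosphatase, the product of Alpl. Matrix vesicles that bud from chondrocytes hold PHOSPHO1, a phosphatase acting on phosphocholine, and the sphingomyelinase SMPD3 releases phosphocholine from membrane lipid. The sodium-phosphate cotransporters PiT-1 (Slc20a1) and PiT-2 (Slc20a2) carry phosphate into cells. Of the acidic matrix proteins, bone sialoprotein (Ibsp) can nucleate hydroxyapatite and osteopontin (Spp1) restrains crystal growth. Articular cartilage normally stays unmineralised, whereas hypertrophic growth plate cartilage mineralises. Alpl, Phospho1, Smpd3 and Ibsp are described below as promoters of mineral, Enpp1, Ank and Spp1 as inhibitors, and Slc20a1 and Slc20a2 as transporters; the assignment comes from the known biochemistry and not from these libraries.

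The total count per library lay between 6747997 and 18047765, with the 2 TGFβ1 libraries the deepest. Levels are counts over the scaled library size (CPM). Rises and falls are those with an adjusted p under 0.05 in the edgeR quasi-likelihood test, adjusted over all 13367 genes. The TGFβ1 fold changes of short transcripts such as Mgp depended on whether an offset was fitted for the length and GC content of transcripts. Each fold change of the 9 genes for TGFβ1 against vehicle is therefore also given with it. BMP2 replicate 1 stood apart from its group: the chi-square per gene was 13.2 and 17.3 against the other BMP2 libraries, which differed from each other by 1.81. The same measure was 41.1 between the TGFβ1 libraries and 4.36 between the vehicle libraries. It is taken from raw counts and grows with depth. The value of the deeper TGFβ1 libraries therefore cannot be set directly against the others. The summed level of 8 chondrocyte markers was 40919.5 to 47514.4 CPM with BMP2, 31396.5 to 37135.7 CPM with TGFβ1 and 46843 to 47239.6 CPM with vehicle. Most of it came from Col2a1, which was not called in any comparison. Of the 8, 0 rose and 6 fell with TGFβ1 against vehicle, beside 30.4% of all tested genes higher and 25.8% lower. Against vehicle 1 rose and 1 fell with BMP2, beside 5.33% and 6.15%. Among markers of other cells, the 7 osteoclast markers, of which Calcr alone had no count in any library, summed to 102 to 142 CPM with BMP2, 122 to 125 CPM with TGFβ1 and 89.5 to 94.4 CPM with vehicle, mostly from Ctsk. Ctsk, a protease gene, had 99.5 to 139 CPM with BMP2, 117 to 120 CPM with TGFβ1 and 85.5 to 91.7 CPM with vehicle; it rose with TGFβ1 (log2 fold change 0.42 ± 0.16 SE, adjusted p = 0.0461) but was not called with the length offset (0.05, adjusted p = 0.819). The level of the 7 macrophage and leukocyte markers, all with counts, came mostly from Lyz2. They summed to 14.7 to 17.9 CPM with BMP2, 21.7 to 31.6 CPM with TGFβ1 and 21.3 to 29.8 CPM with vehicle. Of the 5 tested, Cd68 (1.58) and Cd14 (1.43) rose and Adgre1 (−1.67) fell with TGFβ1 against vehicle. With the length offset 0 rose and 2 fell, Adgre1 and Lyz2. Without the offset 0 were called with BMP2 against vehicle. The 5 endothelial markers summed to 1.54 to 1.99 CPM with BMP2, 1.145 to 1.398 with TGFβ1 and 0.359 to 0.802 with vehicle. Cdh5 had no count in any library, and only Pecam1 had enough counts to be tested. Pecam1 had 12 to 16 counts with BMP2, 4 and 6 with TGFβ1 and 0 in both vehicle libraries. It was called higher with BMP2 (edgeR adjusted p = 0.00422) and with TGFβ1 (edgeR adjusted p = 0.0183). Vwf averaged 0.164 CPM with BMP2, 0.822 CPM with TGFβ1 and 0.387 CPM with vehicle. In the same order Kdr averaged 0.107, 0.0736 and 0.127 CPM, and Tek 0.13, 0 and 0.0669 CPM. All 5 fibroblast markers had counts. They summed to 9.09 to 11.7 CPM with BMP2, 13.5 to 15.4 CPM with TGFβ1 and 14.1 to 17.9 CPM with vehicle. Of the 3 tested, Col14a1 rose and Scara5 fell with TGFβ1 against vehicle, and 0 were called with BMP2 against vehicle. The 8 osteoblast and osteocyte markers, of which Sost and Mepe had no count, summed to 723 to 796 CPM with BMP2, 1414 to 1637 CPM with TGFβ1 and 711 to 740 CPM with vehicle, mostly from Col1a1. Of the 4 osteoblast and osteocyte markers tested, Col1a1 rose (log2 fold change 1.15) and Sp7 fell (−0.80) with TGFβ1 against vehicle. With BMP2 against vehicle Sp7 alone was called, and it rose (1.31). The shares of all tested genes given above apply to these calls too. The part of these markers in the results was not tested.

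Upstream sequence is shown for Alpl, Enpp1, Ank and Spp1, the enzyme that destroys pyrophosphate, the 2 genes that supply it and the most abundant member per length, since Alpl moved against the other 3 in the comparison of the ligands. The RefSeq table (GRCm38.p6, the assembly of mm10) held windows for 7 of the 9 genes; Smpd3 and Slc20a2 were not among them. Each run is the 250 bases before the annotated start, 5′ to 3′ on the gene's own strand, with capitals marking matches on either strand to the RUNX core TGTGGT (reverse complement ACCACA), the SMAD box CAGACA (reverse complement TGTCTG) or the GC-rich SMAD element GGCGCC, its own reverse complement; no matches overlapped. The windows are chr4:137796385-137796634 on the minus strand for Alpl, chr10:24712160-24712409 on the minus strand for Enpp1, chr15:27466427-27466676 on the plus strand for Ank and chr5:104434861-104435110 on the plus strand for Spp1.
Alpl: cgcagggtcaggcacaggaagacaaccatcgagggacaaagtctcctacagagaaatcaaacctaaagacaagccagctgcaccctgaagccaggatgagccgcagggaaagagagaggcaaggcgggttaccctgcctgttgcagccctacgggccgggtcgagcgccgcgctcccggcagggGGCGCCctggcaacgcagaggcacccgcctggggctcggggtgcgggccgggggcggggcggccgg
Enpp1: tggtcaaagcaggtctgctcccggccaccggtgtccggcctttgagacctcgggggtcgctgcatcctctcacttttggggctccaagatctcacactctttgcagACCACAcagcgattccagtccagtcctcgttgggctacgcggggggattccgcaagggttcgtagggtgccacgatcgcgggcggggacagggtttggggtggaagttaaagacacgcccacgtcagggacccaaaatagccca
Ank: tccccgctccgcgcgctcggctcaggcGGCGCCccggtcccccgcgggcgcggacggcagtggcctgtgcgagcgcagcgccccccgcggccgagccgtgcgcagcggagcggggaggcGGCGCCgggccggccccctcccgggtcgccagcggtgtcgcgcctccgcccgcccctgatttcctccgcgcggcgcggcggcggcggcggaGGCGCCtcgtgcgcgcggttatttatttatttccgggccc
Spp1: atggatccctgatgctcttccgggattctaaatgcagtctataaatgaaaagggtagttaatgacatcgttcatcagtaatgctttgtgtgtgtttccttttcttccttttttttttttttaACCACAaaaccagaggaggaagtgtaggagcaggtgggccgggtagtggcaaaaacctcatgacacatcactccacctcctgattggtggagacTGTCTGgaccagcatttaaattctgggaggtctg

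The Alpl window had 1 match, to the GC-rich element, beginning 66 bases before the start. Ank had 3 matches to the same element, at 223, 131 and 40 bases. Enpp1 had a RUNX core at 144 bases, and Spp1 had a RUNX core at 128 bases and a SMAD box at 34 bases. Of 32841 windows of this length in the table, 14.0% held the RUNX core, 17.1% the SMAD box and 9.59% the GC-rich element. These shares are not matched for GC content, which was 81.2% for Ank, 68.4% for Alpl, 61.2% for Enpp1 and 43.6% for Spp1 in the windows shown. Among the windows not shown, Phospho1 had the GC-rich element at 52 bases, Slc20a1 a RUNX core at 77 bases and a SMAD box at 223 bases, and Ibsp no match; a further window each of Alpl and Spp1 had none either, and that of Slc20a1 a SMAD box at 8 bases. The matches are letters in a window: the GC-rich element was in those of Alpl, which was higher with BMP2 than with TGFβ1, and of Ank, which was lower.

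With TGFβ1, the promoters Smpd3, Phospho1 and Alpl fell and the pyrophosphate suppliers Ank and Enpp1 rose, as did the transporter Slc20a1. With BMP2, Alpl and Phospho1 rose and Spp1, Ibsp and Enpp1 fell. In the direct comparison of BMP2 with TGFβ1, 3 of the 4 promoters were higher, all 3 inhibitors were lower, and Ibsp and Slc20a1 were lower too. Against vehicle, 3 members rose and 3 fell with TGFβ1, beside 30.4% of all tested genes higher and 25.8% lower. Against vehicle, 2 members rose and 3 fell with BMP2, beside 5.33% of all tested genes higher and 6.15% lower. BMP2 against TGFβ1 gave 3 members higher and 5 lower, beside 28.1% and 33.3% of all tested genes. The median log2 fold change of the 9 members was −0.28 with TGFβ1 and −0.16 with BMP2, both against vehicle, and −0.84 between BMP2 and TGFβ1, where all tested genes gave −0.02, 0.00 and −0.02 in the same order. The first 2 comparisons share the vehicle libraries, and the third reuses the treated libraries of both. In bulk RNA a change in the number of cells of a kind and a change in the RNA per cell cannot be told apart.

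**Figure D1:**
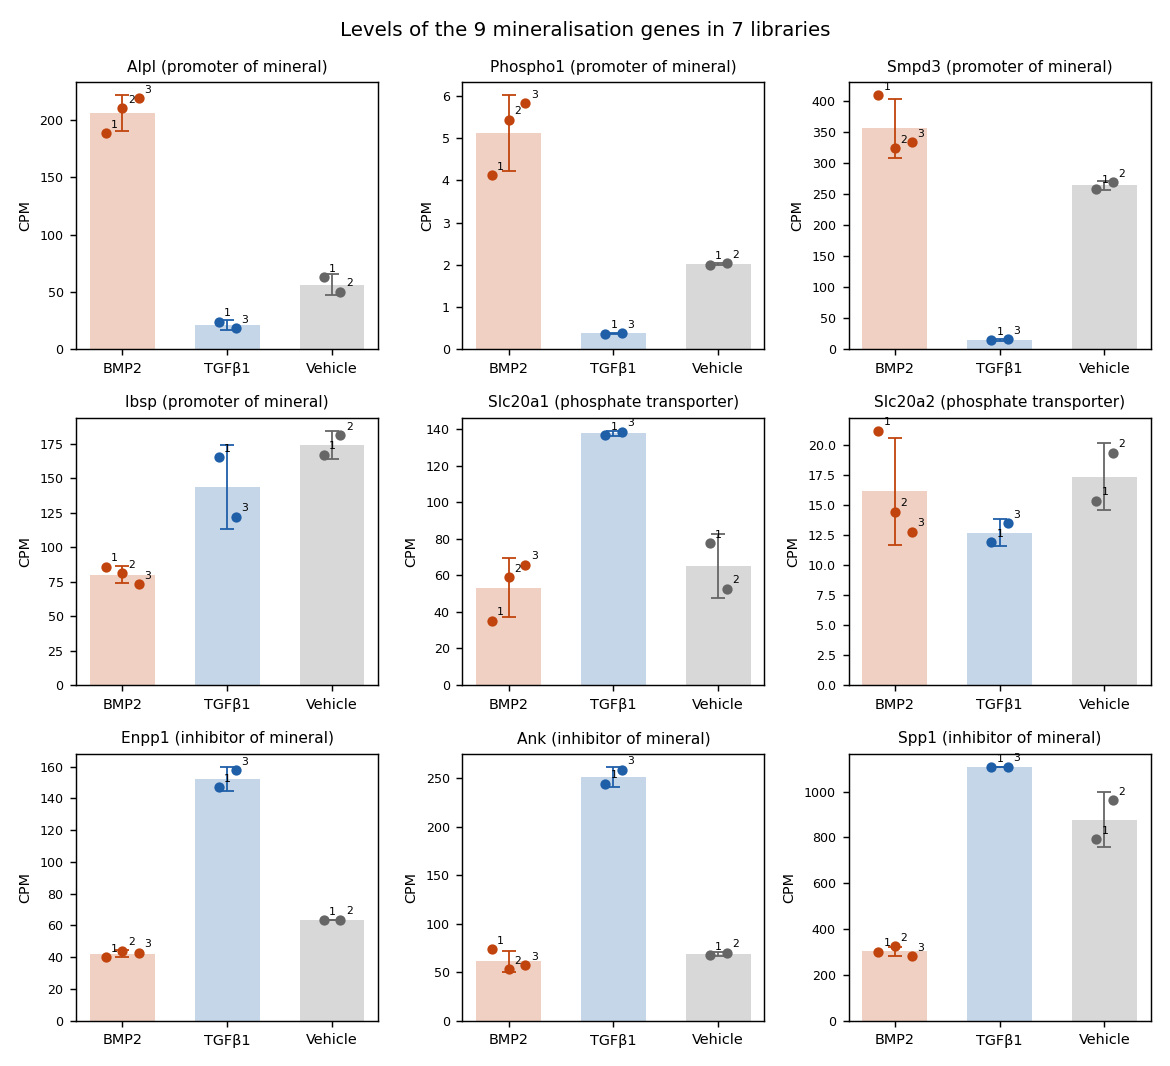
Level of each of the 9 genes in CPM, by library; points are libraries with their replicate number, bars are group means and error bars are SD (n = 3 with BMP2, 2 with TGFβ1, 2 with vehicle). For Alpl the 3 BMP2 libraries lie between 189 and 219 CPM and the TGFβ1 libraries at 18.1 and 24.0 CPM, with vehicle at 50.1 and 62.7 CPM in between.

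Alpl (chromosome 4, 137741733 to 137796384, mm10, minus strand) encodes the phosphatase that turns pyrophosphate into phosphate. It stood at 189, 210 and 219 CPM in the BMP2 libraries, at 24.0 and 18.1 CPM in the TGFβ1 libraries and at 62.7 and 50.1 CPM in the vehicle libraries. The 3 groups did not overlap. The rise with BMP2 was 3.66-fold (log2 fold change 1.87, SE 0.16, edgeR adjusted p = 5.94e-05). The fall with TGFβ1 was −1.42 on the log2 scale (SE 0.17, edgeR adjusted p = 5.7e-05) and −1.65 with the length offset. The difference of BMP2 from TGFβ1 was 9.79-fold (3.29, SE 0.17, edgeR adjusted p = 5.8e-08). No exon base of Alpl overlaps another annotated gene.

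Smpd3 (chromosome 8, 106252548 to 106337988, minus strand) encodes the neutral sphingomyelinase that frees phosphocholine in matrix vesicles. It stood at 409, 323 and 333 CPM with BMP2, at 14.4 and 16.5 CPM with TGFβ1 and at 258 and 269 CPM with vehicle. It had the largest fall of the 9 genes with TGFβ1, −4.09 (SE 0.17, edgeR adjusted p = 1.97e-08), or −3.98 with the length offset. Every BMP2 library was above both vehicle libraries, but the difference of 0.43 (SE 0.14) did not pass the threshold (edgeR adjusted p = 0.0711). It passed with DESeq2 (0.45, adjusted p = 0.0431), in edgeR with only the libraries compared (0.43, adjusted p = 0.0364), without the filter on low counts (0.44, adjusted p = 0.0315) and with the length offset (0.53, adjusted p = 0.0166). BMP2 replicate 1 was the highest library, and without it the difference was 0.32 and did not pass (edgeR adjusted p = 0.072). Between the ligands the difference was 4.52 (SE 0.17), or 23.0-fold. Prmt7, on the other strand, covers 4.72% of the exon bases of Smpd3; it averaged 13.3 CPM with BMP2, 26.7 CPM with TGFβ1 and 11.6 CPM with vehicle.

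Phospho1 (chromosome 11, 95824499 to 95832140, plus strand), the matrix vesicle phosphatase, was the least abundant member. Its counts were 48, 41 and 62 with BMP2, 5 and 5 with TGFβ1 and 15 and 17 with vehicle, or 4.12, 5.44 and 5.83 CPM with BMP2, 0.368 and 0.382 CPM with TGFβ1 and 2.01 and 2.03 CPM with vehicle. The groups did not overlap, and their order was that of Alpl. The fall with TGFβ1 was −2.39 (SE 0.43, edgeR adjusted p = 0.000879; −2.73 with the length offset), and it rests on 5 counts in each TGFβ1 library. The rise with BMP2 was 1.33 (SE 0.28, edgeR adjusted p = 0.0125). It was as large but did not pass when either vehicle library was left out, at 1.32 (edgeR adjusted p = 0.0942) without replicate 1 and 1.34 (adjusted p = 0.102) without replicate 2. BMP2 against TGFβ1 gave 3.72 (edgeR adjusted p = 5.68e-06), or 13.2-fold. A transcript of Zfp652 on the same strand covers 89.6% of the exon bases of Phospho1 and the opposite Abi3 84.2%, so the counting may have withheld reads of Phospho1 or credited it with others. Zfp652 averaged 36.4 ± 2.37 CPM with BMP2, 29.8 ± 4.76 CPM with TGFβ1 and 35.8 ± 3.53 CPM with vehicle and did not pass in any comparison (with the length offset 0.37 for TGFβ1, adjusted p = 0.0495), and Abi3 was at most 0.478 CPM in any library. The level of Phospho1 is therefore uncertain.

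Ibsp (chromosome 5, 104299171 to 104311469, plus strand), which encodes bone sialoprotein, did not share the pattern of the other promoters. It stood at 85.9, 81.0 and 73.4 CPM with BMP2, at 166 and 122 CPM with TGFβ1 and at 167 and 181 CPM with vehicle. All BMP2 libraries were below all others. The fall with BMP2 was −1.12 (SE 0.14, edgeR adjusted p = 0.000713), to 0.459 of the vehicle level. With TGFβ1 the value of −0.28 (SE 0.16, 95% interval −0.63 to 0.07) did not pass (edgeR adjusted p = 0.155). It was −0.30 with the length offset. The 2 TGFβ1 libraries lay far apart for this gene, and without TGFβ1 replicate 1 the difference was −0.51 and passed (edgeR adjusted p = 0.0178). BMP2 against TGFβ1 gave −0.84 (SE 0.14, edgeR adjusted p = 0.000434).

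**Figure D2:**
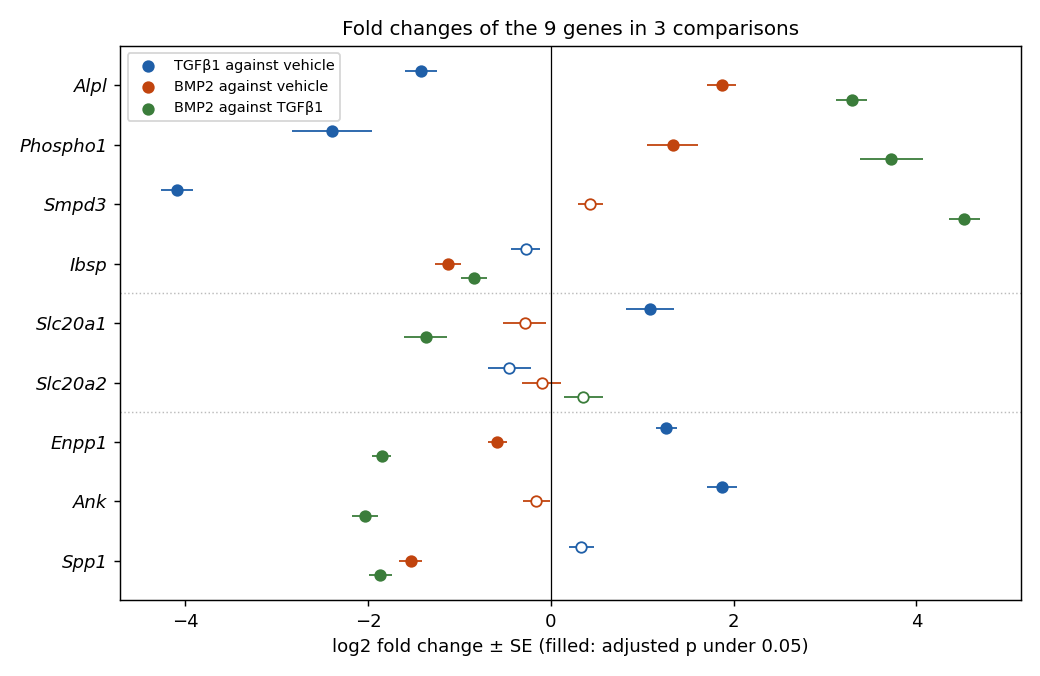
Log2 fold change with SE of each gene in the 3 comparisons, ordered by role (promoters at the top, transporters in the middle, inhibitors at the bottom); filled points passed an adjusted p under 0.05 in edgeR. Alpl lies at −1.42, 1.87 and 3.29 and Ank at 1.87, −0.16 and −2.03 for TGFβ1 and for BMP2 over vehicle and for BMP2 over TGFβ1.

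Of the 2 phosphate transporters, Slc20a1 rose with TGFβ1 and Slc20a2 passed the threshold in no comparison; the difference between their responses was not tested. Slc20a1 (chromosome 2, 129198764 to 129211616, plus strand) stood at 35.2, 59.0 and 65.8 CPM with BMP2, at 137 and 139 CPM with TGFβ1 and at 77.4 and 52.6 CPM with vehicle. Both TGFβ1 libraries were above all others, while BMP2 and vehicle overlapped. The rise with TGFβ1 was 1.08 (SE 0.26, edgeR adjusted p = 0.0049; 1.21 with the length offset). It did not pass without vehicle replicate 2, at 0.83 (edgeR adjusted p = 0.0565). With BMP2 the difference was −0.29 (95% interval −0.82 to 0.24), which does not separate a fall from no change. BMP2 replicate 1 was the lowest library, and without it the difference was −0.06. BMP2 against TGFβ1 gave −1.37 (SE 0.23, edgeR adjusted p = 0.00045; −1.50 with the length offset). Genes on the other strand overlap 13.1% of the exon bases of Slc20a1, and no strand setting of the counting is stated in the sources; of these, 9830144P21Rik averaged 0.307 CPM with BMP2, 2.32 CPM with TGFβ1 and 0.574 CPM with vehicle, and Gm4430 3.10, 3.41 and 3.08 CPM in the same order.

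Slc20a2 (chromosome 8, 22476788 to 22569612, plus strand) was low in every group, at 21.2, 14.5 and 12.8 CPM with BMP2, 11.9 and 13.5 CPM with TGFβ1 and 15.4 and 19.4 CPM with vehicle. The BMP2 libraries overlapped both other groups. No comparison passed the threshold, with log2 fold changes of −0.45 with TGFβ1 (95% interval −0.97 to 0.07), −0.10 with BMP2 (−0.58 to 0.38) and 0.35 between BMP2 and TGFβ1 (−0.12 to 0.82). The TGFβ1 value was −0.44 with the length offset and did not pass (edgeR adjusted p = 0.113). It passed without BMP2 replicate 1, at −0.46 (edgeR adjusted p = 0.031). It also passed with only the libraries compared (−0.47, adjusted p = 0.0444) and without the filter (−0.50, adjusted p = 0.0313), as did the value against BMP2 without the filter (0.41, adjusted p = 0.0495).

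Ank (chromosome 15, 27466677 to 27594909, plus strand), which governs the release of pyrophosphate or its precursors, stood at 73.9, 53.2 and 57.1 CPM with BMP2, at 244 and 259 CPM with TGFβ1 and at 67.4 and 70.1 CPM with vehicle. Both TGFβ1 libraries were above all others, and the BMP2 libraries spanned the vehicle values. The rise with TGFβ1 was 3.66-fold (1.87, SE 0.16, edgeR adjusted p = 4.6e-06; 1.93 with the length offset). With BMP2 the difference was −0.16 (95% interval −0.49 to 0.16; edgeR adjusted p = 0.549), and −0.32 without BMP2 replicate 1. Between the ligands it was −2.03 (SE 0.14, edgeR adjusted p = 6.03e-07; −2.06 with the length offset).

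Enpp1 (chromosome 10, 24637914 to 24712159, minus strand), which makes extracellular pyrophosphate, stood at 39.9, 44.0 and 43.0 CPM with BMP2, at 147 and 158 CPM with TGFβ1 and at 63.2 and 63.6 CPM with vehicle. The 3 groups did not overlap and ran in the order opposite to Alpl. The rise with TGFβ1 was 1.26 on the log2 scale (SE 0.12, edgeR adjusted p = 7.42e-06). It was 1.77 with the length offset; the principal transcript of Enpp1, 6777 nt, is the longest of the 9 genes. The fall with BMP2 was −0.59 (SE 0.11, edgeR adjusted p = 0.00591). It was of the same size but did not pass without vehicle replicate 1 (−0.59, adjusted p = 0.0635) or vehicle replicate 2 (−0.58, adjusted p = 0.0732). Between the ligands the difference was −1.85 (SE 0.10, edgeR adjusted p = 1.05e-07; −2.31 with the length offset).

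Spp1 (chromosome 5, 104435118 to 104441050, plus strand), which encodes osteopontin, was the most abundant member per length in every group. It stood at 302, 325 and 283 CPM with BMP2, at 1106 and 1108 CPM with TGFβ1 and at 793 and 963 CPM with vehicle. Its fall with BMP2, to 0.345 of the vehicle level, was −1.53 (SE 0.13, edgeR adjusted p = 5.11e-05). Both TGFβ1 libraries lay above both vehicle libraries, but the difference of 0.33 (SE 0.14) did not pass (edgeR adjusted p = 0.0644). It was 0.03 with the length offset, and it passed without BMP2 replicate 1 (0.33, adjusted p = 0.0337) and with scaling from genes of at least 2000 bases (0.42, adjusted p = 0.0265). Between the ligands the difference was −1.87 (SE 0.13; −1.61 with the length offset). Gm42793, on the same strand, covers 18.8% of the exon bases of Spp1 and was at most 0.515 CPM.

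Spp1 and Ibsp lie in a cluster of acidic phosphoprotein genes on chromosome 5. The other 3 genes of that cluster on the lists were near or at 0. Dmp1 was at 0.172 to 0.265 CPM with BMP2, had no count with TGFβ1 and was at 0.239 and 0.401 CPM with vehicle. Dspp had counts in 1 TGFβ1 library only (0.153 CPM), and Mepe had none in any library. A count of 0 allows up to 3 counts, which is 0.221 CPM in the deepest library and 0.401 CPM in the library with the highest such limit; this covers counting error only.

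**Figure D3:**
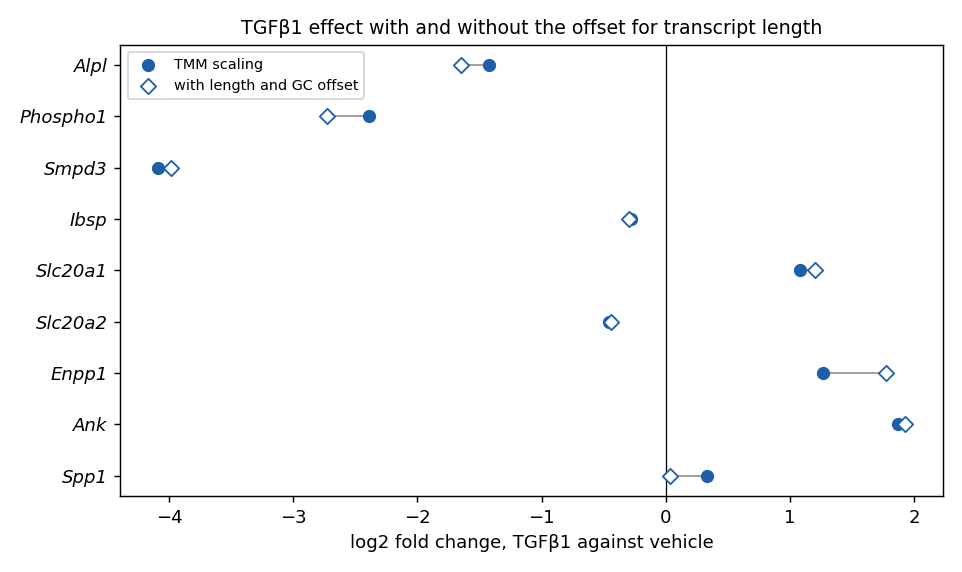
Log2 fold change of the 9 genes for TGFβ1 against vehicle with TMM scaling (filled circles) and with the offset for transcript length and GC content (open diamonds). The largest shifts are those of Enpp1 (1.26 and 1.77), Phospho1 (−2.39 and −2.73) and Spp1 (0.33 and 0.03), and no gene changes sign.

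Levels of different genes were compared per kilobase of the deposited gene length (CPM per kb). With BMP2 the order was Spp1 (184 ± 12.8), Smpd3 (67.9 ± 8.96), Alpl (51.1 ± 3.92), Ibsp (38.7 ± 3.05), Ank (17.0 ± 3.06), Slc20a1 (9.56 ± 2.89), Enpp1 (4.12 ± 0.209), Slc20a2 (2.597 ± 0.715) and Phospho1 (2.53 ± 0.442 CPM per kb; SD, n = 3). The last 2 overlapped. With TGFβ1 it was Spp1 (672 ± 0.908), Ank (69.7 ± 2.86), Ibsp (69.6 ± 14.8), Slc20a1 (24.7 ± 0.24), Enpp1 (14.9 ± 0.732), Alpl (5.22 ± 1.03), Smpd3 (2.95 ± 0.28), Slc20a2 (2.05 ± 0.182) and Phospho1 (0.185 ± 0.00486 CPM per kb; SD, n = 2), with Ank and Ibsp not separated. With vehicle it was Spp1 (533 ± 72.8), Ibsp (84.3 ± 4.89), Smpd3 (50.4 ± 1.46), Ank (19.1 ± 0.529), Alpl (14.0 ± 2.21), Slc20a1 (11.7 ± 3.14), Enpp1 (6.19 ± 0.0265), Slc20a2 (2.80 ± 0.455) and Phospho1 (0.995 ± 0.00962 CPM per kb; SD, n = 2), with Alpl and Slc20a1 overlapping. Smpd3 held the second place with BMP2, the seventh with TGFβ1 and the third with vehicle.

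The balance of the enzymes that remove and make pyrophosphate was read within each library as the ratio of Alpl to Enpp1 in CPM per kb, which does not depend on the scaling of the library. It was 12.0, 12.2 and 13.0 with BMP2, 0.415 and 0.292 with TGFβ1 and 2.52 and 2.00 with vehicle. The groups did not overlap: Alpl exceeded Enpp1 in every BMP2 and vehicle library and was below it in both TGFβ1 libraries; without division by gene length the vehicle mean was below 1, at 0.89. The group means were 12.4 ± 0.52 (SD, n = 3), 0.353 ± 0.0868 (n = 2) and 2.26 ± 0.367 (n = 2) in that order, and 14.3, 0.244 and 2.62 with the length offset. The ratio of Alpl to Ank was 2.28 to 3.54 with BMP2, 0.0626 and 0.0879 with TGFβ1 and 0.64 and 0.833 with vehicle. Slc20a1 exceeded Slc20a2 in every library, by 1.85 to 5.73 times with BMP2, 11.4 and 12.8 times with TGFβ1 and 3.03 and 5.61 times with vehicle. The BMP2 and vehicle values of this ratio overlapped. The ratio of Spp1 to Ibsp was 4.41 to 5.03 with BMP2, 8.38 and 11.4 with TGFβ1 and 5.96 and 6.66 with vehicle. These ratios are descriptions of RNA levels, and no test was made of them.

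**Figure D4:**
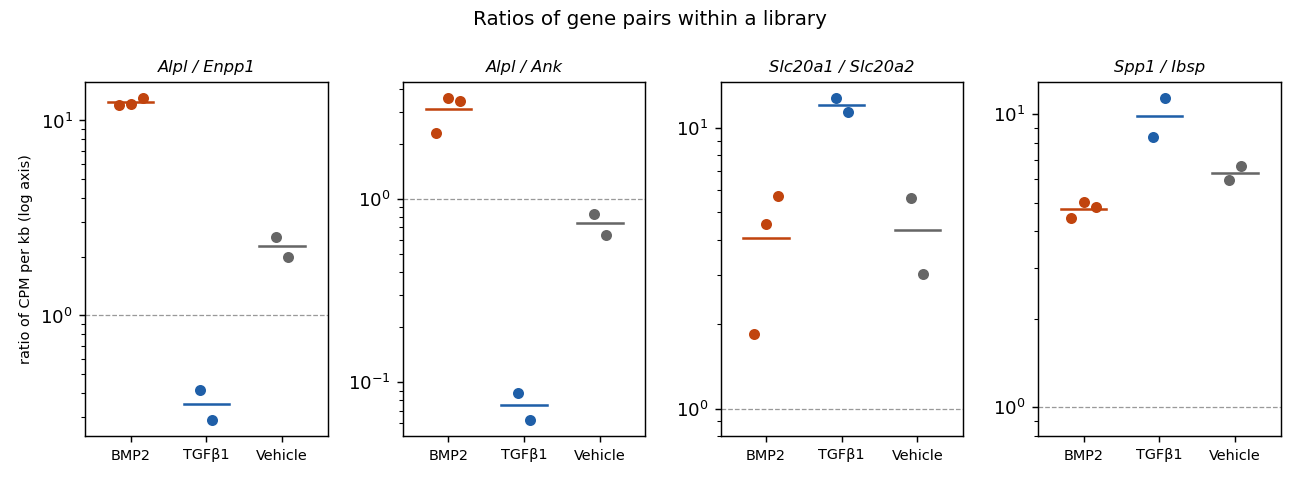
Ratio of CPM per kb between 2 genes in each library, on a log axis, with group means as lines; the dashed line marks equal levels. Alpl over Enpp1 lies between 12.0 and 13.0 with BMP2, at 0.292 and 0.415 with TGFβ1 and at 2.00 and 2.52 with vehicle.

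Genes around the 9 members were read from 5 lists drawn from general knowledge of mineralisation; beyond Panx3, Mgp, Omd, Msx2 and Ucma, which a rule on the smallest p picked, the genes named were chosen after their values were seen. The counts of each list stand beside the shares over all tested genes, and no list was tested as a set. Against vehicle these shares were 30.4% higher and 25.8% lower with TGFβ1, and 5.33% and 6.15% with BMP2. For BMP2 against TGFβ1 they were 28.1% and 33.3%. On the list of extracellular pyrophosphate and phosphate genes, 10 of 13 were tested. With TGFβ1 4 rose (Ank, Enpp1, Enpp3 and the cytosolic pyrophosphatase gene Ppa1) and 4 fell (Panx3, Entpd3, Alpl and Ppa2), and the list median was 0.39. DESeq2 gave 3 rises and 3 falls. The call of Enpp3 (edgeR adjusted p = 0.0407) rests on 36 and 24 counts with TGFβ1 and 2 and 11 with vehicle. The rise of Ppa1, 0.82, was 0.20 with the length offset and then did not pass. Panx3, a pannexin channel gene of maturing chondrocytes, stood at 272 ± 2.00 CPM with BMP2 (SD, n = 3), 7.63 ± 1.39 CPM with TGFβ1 (n = 2) and 82.9 ± 1.33 CPM with vehicle (n = 2). Its fall with TGFβ1 was −3.44 (SE 0.15) and its rise with BMP2 1.71 (SE 0.13), so its groups had the same order as those of Alpl. With BMP2 3 genes of the list rose (Alpl, Panx3 and Ppa1) and 2 fell, Enpp1 and Nt5e (−0.93), the gene for the ecto-enzyme that makes adenosine; the list median was −0.04. With either vehicle library left out, 3 rose and 0 fell in edgeR; on all libraries 2 fell at an unadjusted p under 0.05 and 2 with DESeq2.

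Of the 13 genes of phosphate transport and sensing, 7 were tested. With TGFβ1 Slc20a1 rose, and the phosphate exporter gene Xpr1 (−1.13; −0.56 with the length offset) and the secretory kinase gene Fam20c (−0.87; −0.85 with it) fell, with a list median of −0.22. Xpr1 averaged 66.0 ± 0.386 CPM with BMP2 (SD, n = 3), 28.8 ± 3.04 CPM with TGFβ1 (n = 2) and 63.0 ± 6.75 CPM with vehicle (n = 2). With BMP2 0 of the 7 rose in edgeR (0 at an unadjusted p under 0.05, and 0 with DESeq2) and Fgfr1 fell (−0.86, SE 0.21); the list median was −0.10. Fgfr1 stood at 94.0 CPM in BMP2 replicate 1 and 54.4 and 55.7 CPM in the other BMP2 libraries, beside 117 and 130 CPM with vehicle, and the fall did not pass in edgeR without BMP2 replicate 2, BMP2 replicate 3 or either vehicle library.

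All 15 genes of the list on matrix vesicles and the supply of PHOSPHO1 were tested. With TGFβ1 3 rose (Anxa2, Anxa5 and Enpp6) and 6 fell, among them Smpd3, Phospho1, the choline transporter-like gene Slc44a2 (−1.42) and Enpp2 (−0.96), the gene for autotaxin; the list median was −0.15. Enpp6, whose product is a choline phosphodiesterase, stood at 1.91 and 3.51 CPM with TGFβ1 and at 0.401 and 0.239 CPM with vehicle (3 and 2 counts). With BMP2 4 rose, Phospho1, Slc44a2 (0.93), Anxa6 (0.72) and Enpp2 (0.52), and 2 fell, the acid sphingomyelinase gene Smpd1 (−0.54) and the choline kinase gene Chka (−0.52), with a list median of 0.09. With BMP2, 2 rose and 1 fell when vehicle replicate 1 was left out, 1 rose and 0 fell without vehicle replicate 2, 3 rose and 1 fell without BMP2 replicate 2, 3 rose and 0 fell without BMP2 replicate 3, and DESeq2 on all libraries gave 6 rises and 0 falls. Smpd3 and Smpd1 code for sphingomyelinases of different compartments, and the ratio of Smpd3 to Smpd1 was 8.94 to 12.0 with BMP2, 0.287 and 0.291 with TGFβ1 and 4.97 and 5.65 with vehicle.

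Of the 14 genes on the list of acidic and calcium-binding matrix proteins, 10 were tested. The name is loose, since the list also holds Tnfrsf11b, which does not encode such a protein. With BMP2 0 rose in edgeR (1 at an unadjusted p under 0.05, and 0 with DESeq2) and 6 fell: Spp1, Ibsp, Mgp, Ucma, Omd and Tnfrsf11b, with a list median of −0.77. With TGFβ1 5 rose (Ucma, Mgp, Sparc, Tnfrsf11b and Bgn) and Omd fell, with a list median of 0.62; with the length offset 3 rose and 3 fell. Mgp, the gene for a vitamin K-dependent inhibitor of mineral, averaged 276 ± 35.95 CPM with BMP2 (SD, n = 3), 7556.3 ± 128.5 CPM with TGFβ1 (n = 2) and 970 ± 74.4 CPM with vehicle (n = 2). Its fall with BMP2 was −1.81 (SE 0.14). Its rise with TGFβ1 was 2.96 (SE 0.16), and with the length offset it was 0.15 and did not pass (adjusted p = 0.532). Ucma, whose product is another such protein of chondrocytes, fell with BMP2 by 2.19 on the log2 scale; its rise with TGFβ1 was 3.03, and 0.65 with the offset. BMP2 against TGFβ1 gave −4.78 for Mgp and −5.22 for Ucma, and −1.99 and −2.80 with the offset. Omd, the gene for osteomodulin of mineralised tissue, fell with TGFβ1 by 1.66 (−1.29 with the offset) and with BMP2 by 0.81. The osteocalcin genes Bglap and Bglap2, near-identical copies whose reads may be split between them, did not pass in edgeR. Bglap stood at 66.9, 24.0 and 27.9 CPM with BMP2, 26.8 and 31.2 CPM with TGFβ1 and 27.0 and 25.7 CPM with vehicle, with BMP2 replicate 1 above all other libraries. Their TGFβ1 differences of 0.14 and 0.76 became −2.99 and −2.35 with the length offset and then passed, so no direction is given for them.

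Of the 11 transcription factors of mineralising cells, 10 were tested. With BMP2 5 rose, Dlx3 (4.004), Msx2 (2.47), Sp7 (1.31), Dlx5 (1.13) and Mef2c (1.05), and 0 fell in edgeR (0 at an unadjusted p under 0.05, and 0 with DESeq2), with a list median of 1.03. Msx2, a homeobox gene induced by BMP signalling, averaged 23.3 ± 2.70 CPM with BMP2 (SD, n = 3), 3.68 ± 0.521 CPM with TGFβ1 (n = 2) and 4.23 ± 0.114 CPM with vehicle (n = 2). With TGFβ1 Runx3 rose (0.45) and 6 fell, with a list median of −0.63. The 6 were Dlx5 (−2.58), Sox9 (−1.40), Mef2c (−1.21), Sp7 (−0.80), Runx2 (−0.69) and Atf4 (−0.57). The osterix gene Sp7, Dlx5 and Mef2c thus differed in direction between the ligands, as Alpl and Phospho1 did among the members. Runx2, a driver of chondrocyte hypertrophy, averaged 42.9 ± 2.61 CPM with BMP2 and 41.5 ± 0.764 CPM with vehicle, a difference of 0.05 (SE 0.11) that did not pass. It fell by 0.69 with TGFβ1, and −0.26 with the length offset did not pass. Against TGFβ1, 9 of the 10 were higher with BMP2 and Runx3 was lower.

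**Figure D5:**
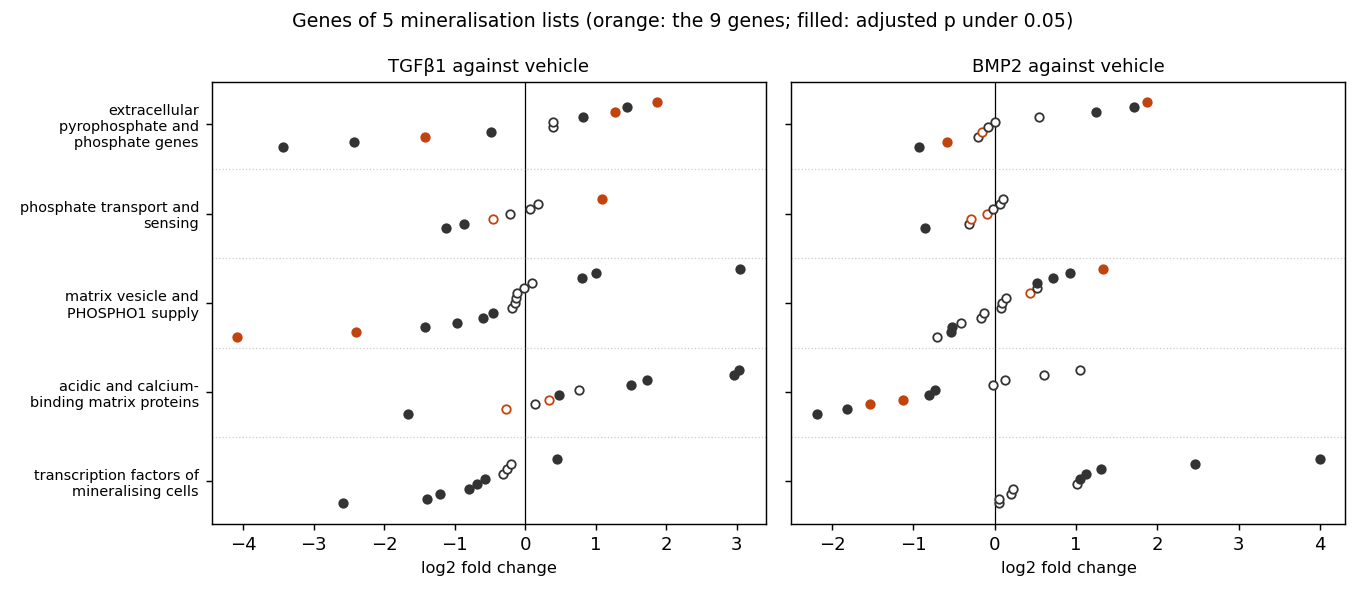
Log2 fold change of each tested gene on the 5 lists, for TGFβ1 against vehicle on the left and BMP2 against vehicle on the right; orange points are the 9 genes and filled points passed an adjusted p under 0.05. With BMP2, 6 genes on the list of acidic and calcium-binding matrix proteins lie to the left of 0 as filled points. Of the transcription factors, 5 lie to the right as filled points with BMP2.

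The tested genes most like each member were sought by the distance between log2 CPM values over the 7 libraries, each gene centred on its own mean, taking only those whose mean log2 CPM reached 2. This describes the libraries and has no test, and the treatment groups and the library depths are shared by all genes. Nearest to Alpl were Ednrb, an endothelin receptor gene, at a distance of 0.405 and Rarres1 at 0.537; Ednrb had fold changes of −1.44 with TGFβ1 and 1.87 with BMP2. Nearest to Phospho1 were Dlx5 (0.437) and Ppp1r3b (0.459), and nearest to Smpd3 the imprinted gene Peg10 (0.46) and Otog (0.597). Enpp1 had the closest neighbour of all members, Snhg12 at 0.151, followed by Lbp at 0.213. For Ank they were Nt5dc2 (0.257) and Hps4 (0.269), for Spp1 Dbn1 (0.269) and Pdlim2 (0.329), and for Ibsp Tmem8 (0.296) and Osr1 (0.324). Slc20a1 had Slc31a2 (0.415) and Frk (0.507), and Slc20a2 had Kat7 (0.201) and Hace1 (0.214).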

How the data were processed

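Bulk RNA sequencing counts of 7 libraries were analysed. The authors deposited 1 whole-number count per gene name and library, with a gene length in bases; the counts were not normalised. The submitters' processing notes list mm10 and the tools cutadapt, STAR (2.4.2a), featureCounts, Subread and DESeq2 without roles. Annotation, strand and multi-mapping settings: not given in the sources used here. Samples were grouped by their titles.

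Genes passing filterByExpr (13367) were fitted over all 7 libraries with edgeR 4.0.16 in R 4.3.3 (TMM, quasi-likelihood, 1 coefficient per group, 4 residual degrees of freedom, Benjamini-Hochberg over all tested genes, 2-sided, threshold 0.05). The common biological coefficient of variation was 0.133. SE is the fold change divided by the square root of F, and 95% intervals use it. The length offset used lowess trends, per library, of log2 CPM (with prior count 1) on the principal transcript length (span 0.15) and GC content (span 0.3) of GENCODE M21; 137 tested genes without a match took the deposited length and the median GC content. A group left with 1 library is assumed to vary like the others. The depth limits genes such as Phospho1, at 5 to 62 counts.

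The members, lists and alternatives were chosen with earlier results of these data known. Named were the 9 members, the 3 further list genes of smallest p per comparison (mean log2 CPM at least 2) and the 2 nearest genes per member (no Gm or Rik names); other names were added with values in view. Alternatives were DESeq2 1.42.0, its size factors, scaling from genes of at least 2000 bases, no filter, only the libraries compared, the replicate block, the length offset and each library left out.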

Additional observations from a re-analysis of the deposited data

How the results depend on the processing

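Every change of the 9 genes called for TGFβ1 against vehicle and for BMP2 against TGFβ1 kept its direction and its call under all 14 alternatives, except that of Slc20a1 with TGFβ1 without vehicle replicate 2. The number of members called was 5 to 8 of 9 for TGFβ1, 3 to 6 for BMP2, and 8 or 9 for BMP2 against TGFβ1. Leaving out single libraries gave 3 to 5 members called for BMP2, the low value without either vehicle replicate, and 557 to 1698 genes in all, against 1535, the count being 557 when vehicle replicate 2 was dropped, 671 for vehicle replicate 1 and 981 for BMP2 replicate 3. Deviations of same-numbered libraries from their group means had r between −0.139 and −0.001. With 2 or 3 libraries per group, and no differently numbered pairs set beside them, these values cannot decide whether the numbers pair the libraries. With the replicate block 771 genes were called for BMP2, and of the members only the call of Phospho1 with BMP2 was lost. The BMP2 differences of the transporters, not called, changed sign when single libraries were left out: Slc20a1 ran from −0.54 (without vehicle replicate 2) to 0.021 (without vehicle replicate 1), and Slc20a2 from −0.36 (without BMP2 replicate 1) to 0.081 (without vehicle replicate 2), with 0.05 without BMP2 replicate 3; the cause was not tested. Smpd3 with BMP2, and Spp1, Ibsp and Slc20a2 with TGFβ1, lay near the threshold and passed it under some alternatives. The edgeR fit without the filter gave some genes far smaller adjusted p at nearly the same fold change. For Smpd3 with TGFβ1 it gave 6.83e-114 at −4.13, beside 1.97e-08 at −4.09 in the main edgeR fit. A pass in that fit alone therefore counts for less. Without division by gene length the Alpl to Enpp1 ratio was 4.87 with BMP2, 0.139 with TGFβ1 and 0.89 with vehicle.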
